A study of Homo sapiens with 6 samples.

Results

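The 9 genes described here encode the core of the β-catenin destruction complex and its substrate. They are the scaffolds APC, APC2, AXIN1 and AMER1, the kinases GSK3A, GSK3B and CSNK1A1, the ubiquitin ligase receptor BTRC, and CTNNB1, which encodes β-catenin itself. They were chosen by gene symbol for their role in the complex, with earlier results of these data known. They were matched to Ensembl identifiers through the GENCODE annotation. All 9 were among the 58884 genes of the deposited table and all 9 passed the filter on low counts, which kept 16059 genes.

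The destruction complex holds β-catenin low in cells that receive no Wnt signal. Casein kinase 1α primes β-catenin by a first phosphorylation, GSK3 kinases extend it on the AXIN and APC scaffolds, and β-TrCP then recognizes the phosphorylated protein and hands it over for ubiquitination and degradation. A Wnt ligand at its receptors stops this step, and β-catenin enters the nucleus and acts with TCF/LEF factors. In most colorectal cancers the complex is disabled by truncating mutations of APC, and DLD1 is one of the lines that carry a truncated APC protein.

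RNA-seq was performed in DLD1, a human colorectal cancer line with a helical domain mutation of PIK3CA, as parental cells (n = 3 libraries) and as cells with the p85β substitutions K477A and R478A, called p85β KR-AA mutant cells (n = 3 libraries). p85β is a regulatory subunit of PI3K encoded by PIK3R2, and the substitutions lie in its nuclear localization sequence. They were knocked into the endogenous gene, and the study worked with more than 1 knock-in clone, while the library labels name no clone. The titles and genotype labels of all 3 mutant libraries give R478A, but the source labels of replicates 2 and 3 give R479A and R480A in its place, and the groups follow the titles. The study reported that p85β with these substitutions failed to enter the nucleus. The PIK3CA mutation is common to both groups, and no treatment was given in the labels. The question was how cells with this p85β mutant differ from parental cells in RNA. Nothing in the labels says that the 3 libraries of a group came from separate cultures, so the p-values measure only the spread between these libraries, which may be technical. In such bulk RNA, fewer cells that express a gene and less RNA per cell cannot be told apart.

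Libraries held 20301396 to 26712816 counts, and levels are given as CPM, read counts scaled to the TMM-normalized library size. PIK3R2, whose coding change the counts cannot show, was at 34.8, 12.3 and 19.3 CPM in parental and 13.7, 16.6 and 4.55 CPM in mutant libraries, which overlap. A protein-coding gene on the same strand (ENSG00000268173) overlaps PIK3R2. It had on average 2666 unscaled counts in parental and 1583 in mutant libraries, so how reads were divided between the 2 genes bears on these levels. The mutant libraries stood apart from the parental ones in cell type markers. The summed CPM of 12 colon epithelial markers was 57232 to 79265 in parental and 8813 to 10313 in mutant libraries, with 11 and 9 of the 12 over 1 CPM in every library. Within that list the keratin KRT8 went from 37381 to 4454 CPM on average, whereas the epithelial cadherin CDH1 went from 97.3 to 344 CPM. The summed CPM of 12 mesenchymal markers was 7.72 to 10.3 in parental and 6320 to 7232 in mutant libraries, with 3 and 7 of the 12 over 1 CPM in every library. FN1 (4.28 to 4992 CPM on average) and VIM (0.803 to 1772 CPM) made up nearly all of that sum. PDGFRA had 0 counts in every library and COL1A2 had 0 counts in the mutant libraries. COL3A1, DCN, LUM and FAP had 0 counts in the parental libraries. Of the 8 tested mesenchymal markers, 6 were up-regulated and 0 down-regulated by the rule given below, against 28.6% and 17.6% of all genes. All 8 were higher in every mutant library than in any parental one, against 47% of all genes. Of the 11 tested epithelial markers, 2 (18.2%) were up-regulated and 6 (54.5%) down-regulated by the same rule. With the length and GC offsets described below, 0 of them were up-regulated and 1 down-regulated. On that scale 6 mesenchymal markers were up-regulated and 0 down-regulated, against 18% and 6.58% of all genes. Blood markers summed to 54.5 to 66.3 and 36.7 to 45.3 CPM, most of it CD68, with PTPRC and HBB at 0 counts in the parental libraries. Neuronal markers summed to 0.617 to 1.31 and 5.36 to 7.28 CPM, with DCX and ELAVL4 at 0 counts in every library. These markers separate all 3 mutant libraries from all 3 parental ones, so no comparison of the complex genes is free of them, and their part in the results was not tested.

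Compared with the parental cells, 4 of the 9 genes (APC, AMER1, BTRC and GSK3B) were up-regulated and 2 (GSK3A and APC2) were down-regulated in p85β KR-AA mutant cells. A gene is called up- or down-regulated at a fold change of at least 3 with an adjusted p-value under 0.01 (edgeR's quasi-likelihood test, Benjamini-Hochberg adjustment over the 16059 genes). Across all tested genes the same rule called 28.6% up-regulated and 17.6% down-regulated, so 4 and 2 of 9 stand near that background. AXIN1, CTNNB1 and CSNK1A1 did not reach 3-fold. None of the 9 genes was called in either direction once length and GC offsets were fitted, against 18% up-regulated and 6.58% down-regulated of all genes. At an adjusted p-value under 0.01 with no fold limit, 6 of the 9 genes rose (41.6% of all genes) and 3 fell (32.7%). The parental and mutant CPM values did not overlap for any of the 9 genes, with 6 higher and 3 lower in the mutant cells, against 47% and 36.5% of all genes and 83.5% in either direction. The median log2 fold change was 1.48 over the 9 genes and 0.32 over all tested genes.

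Each of these directions is relative to the TMM scale. With scaling by library totals the median log2 fold change of all genes moved from 0.32 to 1.24, and calls over all genes went from 4597 up-regulated and 2825 down-regulated to 7052 and 973. On that scale 5 of the 9 genes were up-regulated and 0 down-regulated, and AXIN1 lay at -0.03 ± 0.16 (SE) with an adjusted p-value of 0.889 by edgeR.

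**Figure D1:**
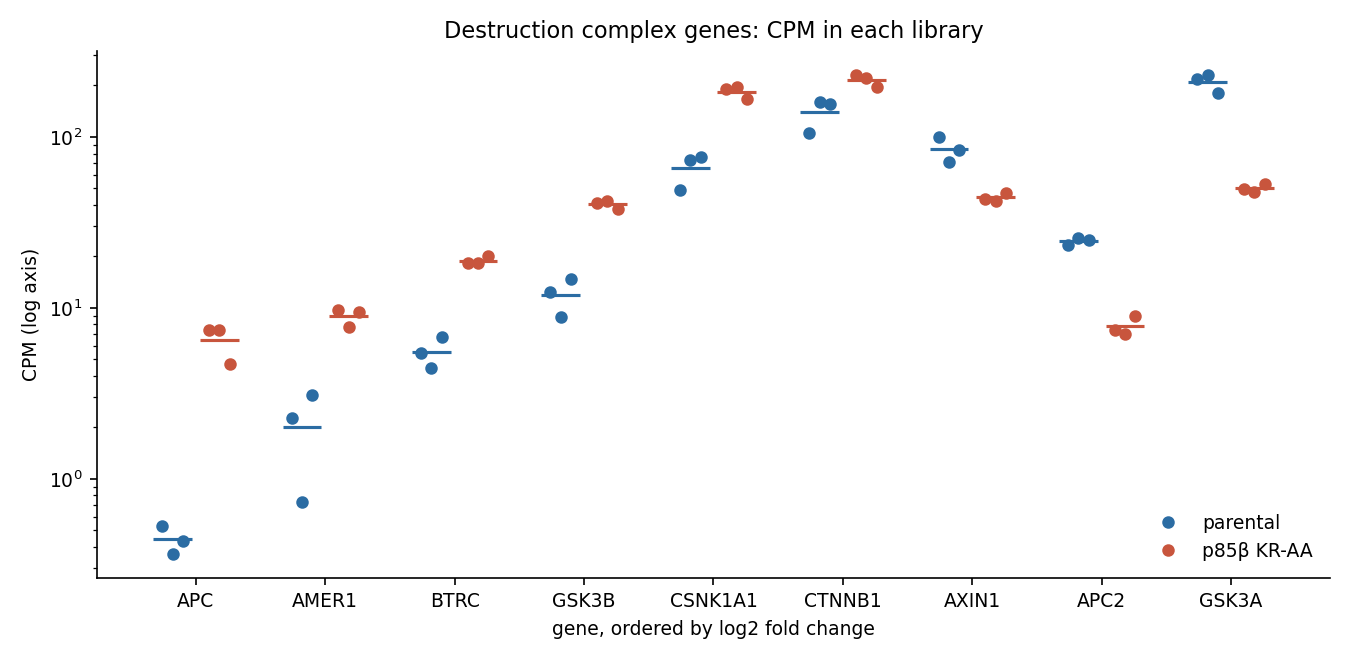
CPM of the 9 destruction complex genes on a log axis, for 3 parental (blue) and 3 p85β KR-AA (red) libraries, each point a library and each bar the group mean. Genes run from the highest log2 fold change on the left (APC, 0.442 to 6.52 CPM) to the lowest on the right (GSK3A, 209.6 to 50.1 CPM), and no gene's groups overlap.

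APC (ENSG00000134982, chr5:112043215-112181936 on the plus strand of GRCh37) is the scaffold that binds β-catenin and AXIN. It gave 8, 5 and 7 counts in parental libraries and 273, 213 and 129 counts in mutant libraries. In CPM this was 0.531, 0.364 and 0.432 against 7.45, 7.42 and 4.70. The highest parental library, at an exact Poisson 95% interval of 0.229 to 1.05 CPM, lay below the lowest mutant library at 3.92 to 5.59 CPM, and these intervals cover counting error only. The mean (± SD, n = 3 libraries) of APC rose from 0.442 ± 0.084 to 6.52 ± 1.58 CPM, and the log2 fold change was 3.86 ± 0.33 (SE) with an adjusted p-value of 2.38e-07 by edgeR. Its fold change was higher than that of 93.0% of tested genes. It was 1.29 and not called under length and GC offsets, and with at least 10 counts required in every library it was not tested at all.

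The APC promoter windows are shown because APC had the largest fold change of the 9 genes. They are the 300 bases from 250 before to 50 after RefSeq's start sites, in GRCh38.p14, with matches to the searched motifs in capitals. The motifs, sought on both strands, were ATCAAAG for TCF/LEF factors, GGGCGG for the GC box, CCAAT for the box of that name, GCATGCGC for NRF1, AAGATGGC for YY1 and CCGGAAG for ETS factors. The first window lies at chr5:112707248-112707547 and the second at chr5:112737635-112737934, both on the plus strand.
APC window 1: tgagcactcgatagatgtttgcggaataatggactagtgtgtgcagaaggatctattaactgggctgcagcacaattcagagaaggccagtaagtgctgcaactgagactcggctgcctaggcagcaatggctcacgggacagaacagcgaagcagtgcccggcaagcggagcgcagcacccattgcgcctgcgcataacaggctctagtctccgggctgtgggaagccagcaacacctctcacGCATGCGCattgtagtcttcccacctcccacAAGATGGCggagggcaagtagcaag
APC window 2: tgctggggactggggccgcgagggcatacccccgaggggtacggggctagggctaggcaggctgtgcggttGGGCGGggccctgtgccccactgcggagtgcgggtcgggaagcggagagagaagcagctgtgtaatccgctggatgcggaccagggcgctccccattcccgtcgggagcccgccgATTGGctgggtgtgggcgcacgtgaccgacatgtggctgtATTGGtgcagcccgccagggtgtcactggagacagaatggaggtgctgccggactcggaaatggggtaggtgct
The first window holds 1 NRF1 match and 1 YY1 match, letters found in 3.05% and 2.89% of the 35116 promoters of that length. The second holds 1 GC box (45% of promoters) and 2 CCAAT boxes (34.6%). The TCF/LEF letters, present in 2.62% of promoters, are in none of the 11 windows RefSeq gives for 8 of the 9 genes. A match is a run of letters and was not measured as a bound site.

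APC2 (ENSG00000115266, chr19:1446301-1473243, plus strand) is the paralog of APC best known from the nervous system. It stood at 23.3, 25.8 and 25.0 CPM in parental and 7.39, 7.03 and 8.96 CPM in mutant libraries. Every mutant library was thus below every parental one, the reverse of APC. APC2 fell from 24.7 ± 1.27 to 7.80 ± 1.03 CPM (SD, n = 3), and the fitted log2 value was -1.66 ± 0.17 with an adjusted p-value of 1.27e-06 by edgeR. That value was -1.38 under length and GC offsets, and with at least 10 counts required in every library it was -1.47, neither of which reached 3-fold. APC2 overlaps C19orf25 on the opposite strand, which had on average 2669 unscaled counts in parental and 611 in mutant libraries. The strand setting of the counting is not given in the sources used here, and without it the reads of the 2 genes cannot be told apart where they overlap.

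AXIN1 (ENSG00000103126, chr16:337440-402723, minus strand) encodes the scaffold that brings the kinases to β-catenin and is held to be the limiting member of the complex. Its level was 99.7, 71.7 and 84.2 CPM in parental and 43.5, 42.1 and 47.2 CPM in mutant libraries, with no overlap between the groups. AXIN1 fell 1.92-fold (log2 fold change -0.94 ± 0.15, adjusted p-value 6.01e-05 by edgeR), short of 3-fold, and its direction flipped to 0.33 ± 0.094 when offsets for gene length and GC content were fitted. In that fit the median log2 fold change of all genes was 0.27, close to the AXIN1 value. The AXIN1 paralog AXIN2, a direct target of β-catenin and TCF that takes the same place in the complex, was at 113, 89.1 and 130 CPM in parental and 126, 125 and 129 CPM in mutant libraries. Those values overlap, and the log2 fold change of AXIN2 was 0.19 ± 0.15 with an adjusted p-value of 0.231 by edgeR.

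AMER1 (ENSG00000184675, chrX:63404997-63425588, minus strand), also called WTX, carries APC to the plasma membrane and binds β-catenin. It gave 34, 10 and 50 counts in parental and 357, 221 and 258 counts in mutant libraries, or 2.26, 0.728 and 3.08 against 9.74, 7.69 and 9.40 CPM. All mutant libraries were higher than all parental ones, while the parental libraries spread more than for any other of the 9 genes (coefficient of variation 59.1%). AMER1 rose from 2.02 ± 1.20 to 8.94 ± 1.10 CPM, and its log2 fold change was 2.12 ± 0.35 with an adjusted p-value of 9.42e-05 by edgeR. Without parental replicate 2, its lowest library, the log2 fold change was 1.71, and without parental replicate 3 it was 2.52. It was 0.94 and not called with length and GC offsets.

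The 2 GSK3 kinases, which phosphorylate β-catenin after its priming and can stand in for each other there, moved in opposite directions. GSK3A (ENSG00000105723, chr19:42730377-42746777, minus strand) was at 219, 229 and 181 CPM in parental and 49.4, 47.6 and 53.2 CPM in mutant libraries. GSK3B (ENSG00000082701, chr3:119540168-119813841, minus strand) was at 12.4, 8.81 and 14.7 CPM in parental and 40.8, 42.4 and 37.6 CPM in mutant libraries. The lowest parental GSK3A value was thus above every mutant one, and the highest parental GSK3B value was below every mutant one.

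GSK3A fell from 209.6 ± 25.2 to 50.1 ± 2.84 CPM (SD, n = 3), with the log2 fold change at -2.07 ± 0.14 and an adjusted p-value of 2.77e-08 by edgeR, while GSK3B rose from 11.9 ± 2.96 to 40.3 ± 2.43 CPM, at 1.75 ± 0.19 with an adjusted p-value of 2.25e-06. Without parental replicate 2, which had the lowest GSK3B level, the GSK3B change was 1.55 and no longer reached 3-fold. Under length and GC offsets GSK3A was at -0.42 and GSK3B at 1.07, and neither was called. GSK3A overlaps a protein-coding gene on the same strand (ENSG00000268643, on average 302 and 193 counts) and ZNF526 on the opposite strand (373 and 450 counts), so part of its estimated counts may be shared with them. These counts are unscaled and cannot be compared directly between groups. The TMM-normalized library sizes were 13732120 to 16209483 in parental and 27444315 to 36661625 in mutant libraries.

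The promoter windows of this pair are shown because the paralogs moved apart. GSK3A lies at chr19:42242553-42242852 and GSK3B at chr3:120094398-120094697 in GRCh38.p14, each on the minus strand and each printed 5′ to 3′ in the gene's direction, with motif matches in capitals.
GSK3A: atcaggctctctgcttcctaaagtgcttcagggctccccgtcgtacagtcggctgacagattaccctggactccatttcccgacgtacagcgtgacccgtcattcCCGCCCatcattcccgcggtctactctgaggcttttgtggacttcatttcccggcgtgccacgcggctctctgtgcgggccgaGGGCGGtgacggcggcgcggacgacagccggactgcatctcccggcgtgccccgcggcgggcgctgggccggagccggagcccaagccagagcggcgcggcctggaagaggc
GSK3B: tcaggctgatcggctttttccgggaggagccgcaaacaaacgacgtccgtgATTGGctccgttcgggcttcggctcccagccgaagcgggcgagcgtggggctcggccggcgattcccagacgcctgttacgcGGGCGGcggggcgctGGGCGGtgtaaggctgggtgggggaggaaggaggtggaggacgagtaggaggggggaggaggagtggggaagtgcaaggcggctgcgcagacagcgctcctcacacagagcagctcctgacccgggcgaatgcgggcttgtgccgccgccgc
The windows were alike in base composition, with 67.3% GC and 34 CpG sites for GSK3A and 69.3% GC and 33 CpG sites for GSK3B, against a median GC of 58.7% over all promoters. Each holds 2 GC boxes, and that of GSK3B also holds 1 CCAAT box. The transcripts were not alike, at 61.4% GC for GSK3A and 41.9% for GSK3B. Each value is for the annotated transcript closest in length to the deposited gene length. For GSK3B that length (1957 bases) is shorter than the canonical transcript (7743 bases).

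CSNK1A1 (ENSG00000113712, chr5:148872545-148931034, minus strand) encodes casein kinase 1α, the priming kinase. It was at 49.1, 73.7 and 75.8 CPM in parental and 190, 197 and 166 CPM in mutant libraries, again with no overlap. CSNK1A1 rose 2.78-fold (log2 fold change 1.48 ± 0.17, adjusted p-value 3.69e-06 by edgeR), just under the 3-fold rule, and passed it at 2.40 with scaling by library totals. A long noncoding gene within it on the same strand (ENSG00000230551) went from 5.77 to 334 unscaled counts on average. The near copies CSNK1A1L, CSNK1A1P1 and CSNK1A1P3 had 0 counts in every library.

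BTRC (ENSG00000166167, chr10:103113790-103317078, plus strand) encodes β-TrCP1, the F-box protein that binds phosphorylated β-catenin. It was at 5.45, 4.44 and 6.79 CPM in parental and 18.2, 18.2 and 20.2 CPM in mutant libraries, so that the groups lay well apart. BTRC rose from 5.56 ± 1.18 to 18.9 ± 1.16 CPM (log2 fold change 1.76 ± 0.20, adjusted p-value 3.00e-06 by edgeR). Its paralog FBXW11, which encodes β-TrCP2, rose from 9.16 ± 1.91 to 41.6 ± 0.56 CPM (2.18 ± 0.18, adjusted p-value 1.67e-07), in the same direction as BTRC. The offsets for length and GC left BTRC at 0.08 and FBXW11 at 0.82, with neither called.

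CTNNB1 (ENSG00000168036, chr3:41236232-41301587, plus strand), the substrate, is also the partner of E-cadherin at cell junctions. It was at 105, 161 and 156 CPM in parental and 231, 222 and 196 CPM in mutant libraries, the smallest gap between groups among the 9 genes. CTNNB1 rose 1.54-fold (log2 fold change 0.62 ± 0.16, adjusted p-value 0.0035 by edgeR), which did not reach 3-fold. Its adjusted p-value was over 0.01 by edgeR in 3 of the 6 fits that left out 1 library (0.0110 without parental replicate 1, 0.0124 and 0.0122 without mutant replicates 1 and 2), and with length and GC offsets the change was 0.07. These are RNA levels, and β-catenin is regulated mainly as a protein, which was not measured here.

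Between genes, levels can be set side by side only per length, here as CPM per kilobase of the deposited gene length. In parental cells GSK3A was the highest at 95.6, followed by CSNK1A1 (60.3), CTNNB1 (44.97), AXIN1 (23.0), GSK3B (6.11), APC2 (2.43), BTRC (0.923), AMER1 (0.241) and APC (0.0413). Only the ranges of CSNK1A1 and CTNNB1 overlapped among neighbours in that order. In mutant cells CSNK1A1 led at 168 CPM per kilobase, then CTNNB1 (69.2), GSK3A (22.8), GSK3B (20.6), AXIN1 (11.9), BTRC (3.14), AMER1 (1.06), APC2 (0.768) and APC (0.609), with overlap only between APC2 and APC. GSK3A (21.70 to 24.2) and GSK3B (19.2 to 21.67) barely cleared each other there. APC was thus the lowest of the 9 genes in both groups, and GSK3A moved from the top to below CSNK1A1 and CTNNB1. The lengths of GSK3B (1957 bases) and CSNK1A1 (1098 bases) are shorter than their canonical transcripts (7743 and 5360 bases). With canonical lengths, an alternative added after the data were seen, CSNK1A1 lay at 12.4 and 34.4 CPM per kilobase and GSK3B at 1.54 and 5.20, so the order of these genes among the others depends on the length used.

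Ratios of 2 genes within a library do not depend on the scaling between libraries, and their change does not depend on the length the counts are divided by, but it still holds any difference that follows transcript length or GC content. The log2 ratio of GSK3B to GSK3A, per kilobase, was -3.98, -4.53 and -3.46 in parental and -0.11, -0.0022 and -0.33 in mutant libraries. GSK3A thus outnumbered GSK3B 11.01- to 23.18-fold in parental libraries and 1.00- to 1.26-fold in mutant libraries, and the ratio moved by 3.84 on the log2 scale. The canonical length of GSK3B in place of the deposited one shifts each of these ratios by -1.98 and leaves the change as it is. For APC to APC2 the log2 ratio was -5.90 ± 0.35 in parental and -0.36 ± 0.56 in mutant libraries (SD, n = 3 each), a change of 5.54. The ratio of CTNNB1 to APC fell by 3.22 on the log2 scale, from 10.08 ± 0.60 to 6.86 ± 0.26, and that of CTNNB1 to AXIN1 went from 0.96 ± 0.57 to 2.53 ± 0.20. AXIN2 to AXIN1 went from 0.17 ± 0.23 to 1.32 ± 0.066. The ratio of the paralogs BTRC and FBXW11 went from -1.19 ± 0.017 to -1.61 ± 0.083. None of the 6 ratios overlapped between groups. Among single genes 83.5% did not overlap either, and no share over other pairs of genes was computed. Each ratio gave p = 0.1 in a two-sided exact permutation test of 3 against 3 libraries, also after adjustment over the 6 ratios. That is the smallest p this design allows. With length and GC offsets, added for the ratios after the data were seen, the change was 1.49 for GSK3B to GSK3A, 2.67 for APC to APC2, -1.22 for CTNNB1 to APC and -0.74 for BTRC to FBXW11. It turned around to -0.25 for CTNNB1 to AXIN1 and to -0.24 for AXIN2 to AXIN1.

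**Figure D2:**
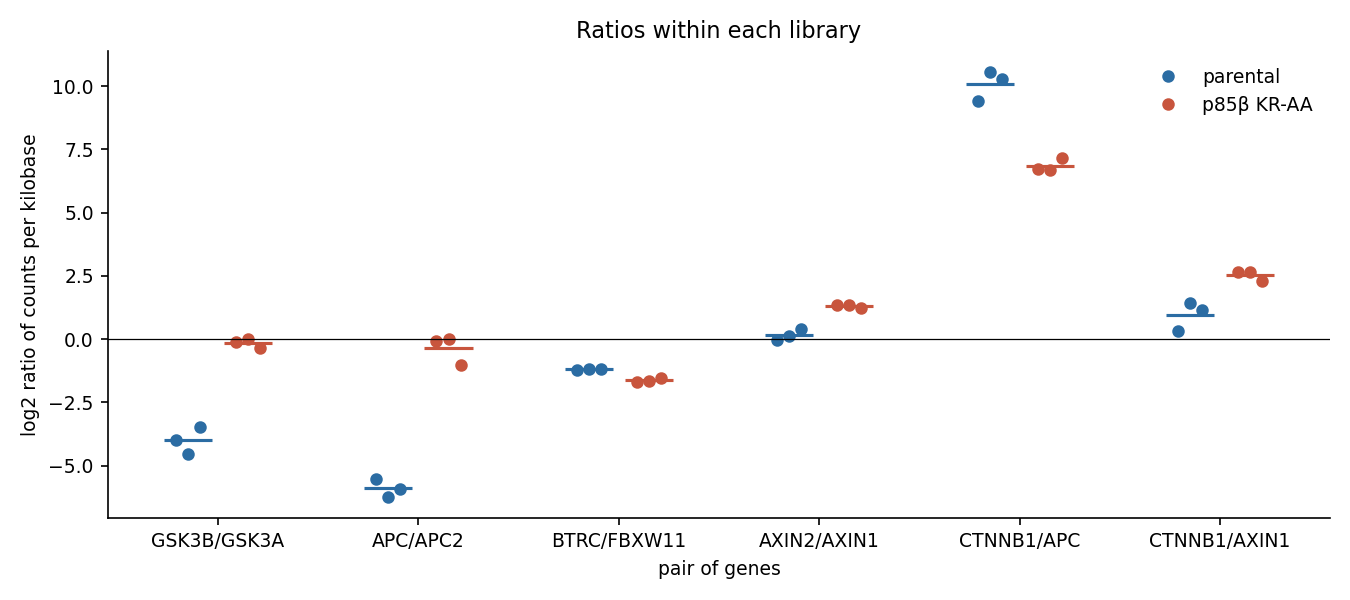
Log2 ratio of counts per kilobase (vertical axis) for 6 pairs of genes (horizontal axis) in 3 parental (blue) and 3 p85β KR-AA (red) libraries, with bars at the group means. GSK3B to GSK3A and APC to APC2 have means of -3.99 and -5.90 in the parental and of -0.15 and -0.36 in the mutant libraries, where 1 library lies at -1.01 for APC to APC2. The changes of AXIN2 to AXIN1 and CTNNB1 to AXIN1 flip below 0 with length and GC offsets.

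Over the whole transcriptome the fold change moved with transcript length and GC content, and the complex genes lie at both ends of these scales. Genes longer than 4000 bases with a GC content under 45% were up-regulated in 70.4% of cases and down-regulated in 0.436%, and APC (10704 bases, 39.6% GC) and BTRC (6024 bases, 44.9% GC) belong to them. GSK3B and CSNK1A1 (36.7% GC) are the other 2 genes under 45% GC, where 51.8% of genes were up-regulated. Both are short by the deposited length, but their canonical transcripts (7743 and 5360 bases) are longer than 4000 bases. Their GC content, too, is that of the annotated transcript closest to the deposited length, not of the canonical one. GSK3A, AXIN1 (63.5% GC) and APC2 (70.1% GC) are the 3 genes of at least 55% GC, where 39.1% were down-regulated and 7.92% up-regulated. AMER1 (8407 bases, 51.2% GC) is long but of middle GC content, and 50.9% of genes over 4000 bases were up-regulated. For APC2, which is both long (10151 bases) and GC-rich, 14.4% of genes of its kind were up-regulated and 13.7% down-regulated. Across the 9 genes the log2 fold change went with GC content at Pearson's r = -0.85 and Spearman's rho = -0.65, and with log2 length at r = 0.19 and rho = 0.35. Across the 15902 tested genes with a GC value these were r = -0.48 and rho = -0.58 for GC and r = 0.38 and rho = 0.45 for length. These are descriptions over genes that share the same 6 libraries.

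**Figure D3:**
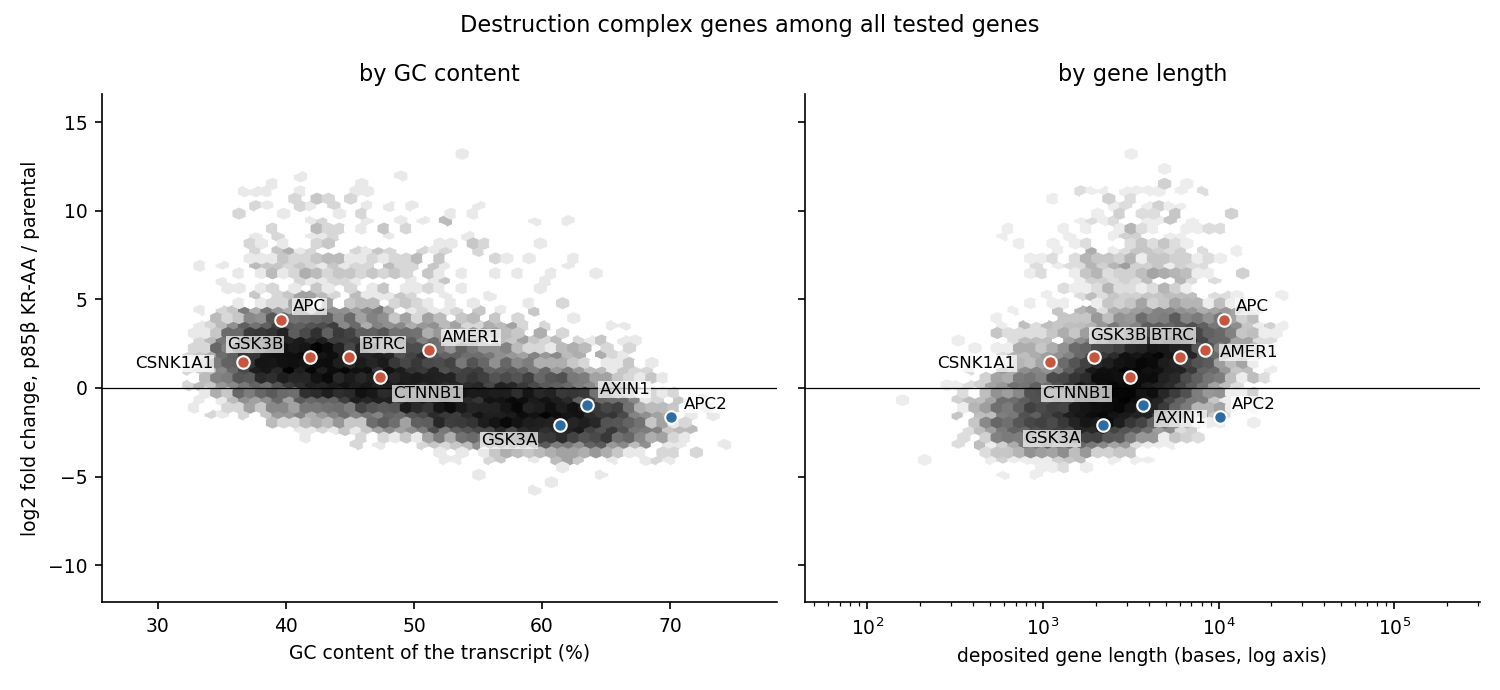
Log2 fold change (p85β KR-AA over parental, vertical axes) against the GC content of the transcript (left) and the deposited gene length on a log axis (right). Grey cells hold the 15902 tested genes with a GC value, darker where there are more of them on a log scale. The 9 complex genes are marked in red (above 0) and blue (below 0). The 3 below 0, of which AXIN1 flips above 0 with length and GC offsets, are the 3 with at least 55% GC.

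When each library was given an offset for gene length and GC content, none of the 9 genes was called, against 18% up-regulated and 6.58% down-regulated among 15902 genes on that scale. The log2 fold change of APC went from 3.86 to 1.29, that of AMER1 from 2.12 to 0.94, that of GSK3B from 1.75 to 1.07 and that of CSNK1A1 from 1.48 to 1.26. APC2 lay at -1.38 and GSK3A at -0.42. BTRC (0.08) and CTNNB1 (0.07) came near 0, with adjusted p-values of 0.626 and 0.642 by edgeR. The median log2 fold change of all genes in that fit was 0.27. An offset for length alone gave APC 1.91, GSK3B 2.36 and CSNK1A1 2.64, and took APC2 to -3.59, BTRC to 0.54 and AMER1 to 0.45. These offsets used the deposited lengths. For GSK3B (1957 bases) and CSNK1A1 (1098 bases) those are shorter than the canonical transcripts (7743 and 5360 bases), and no offset with canonical lengths was fitted. The offsets remove any difference between groups that follows length or GC, whatever its source, and what that source is was not tested.

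**Figure D4:**
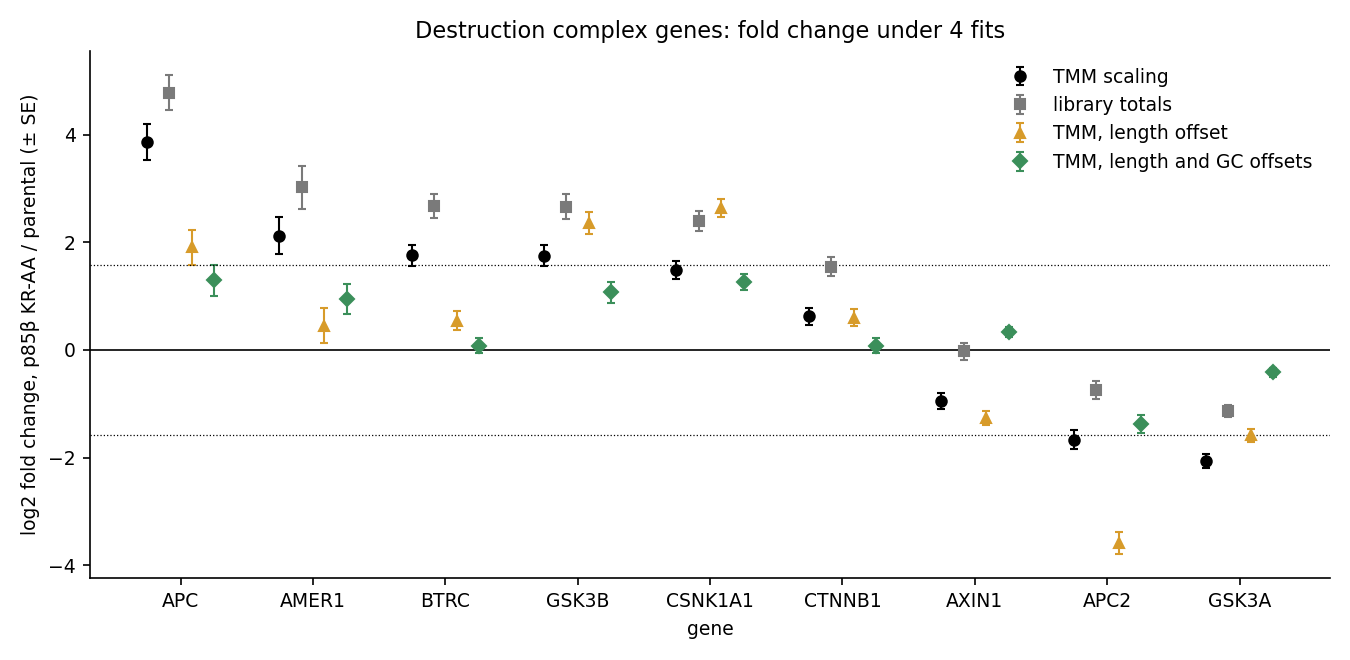
Log2 fold change (p85β KR-AA over parental, vertical axis) of the 9 complex genes under 4 fits, with standard errors as bars. Dotted lines mark 3-fold: on the TMM scale (black) 6 genes lie beyond them, with library totals (grey) every value moves up, with a length offset alone (amber) BTRC and AMER1 drop inside them, and with length and GC offsets (green) none lies beyond them and AXIN1 flips above 0.

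Of 108 further Wnt pathway genes in 6 lists by role, 89 were tested, of which 27 (30.3%) were up-regulated and 15 (16.9%) down-regulated, close to the 28.6% and 17.6% of all genes tested. The median GC content of their transcripts was 43.8% for those up-regulated and 63.4% for those down-regulated. Among 16 tested genes that also serve the destruction complex, 5 (31.25%) were up-regulated and 0 down-regulated. They included FBXW11 and the PP2A regulatory subunits PPP2R5C (log2 fold change 2.16 ± 0.15) and PPP2R5E (2.45 ± 0.20). With length and GC offsets 1 gene of that list was up-regulated and 1 down-regulated, against 18% and 6.58% of all genes on that scale.

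Of 15 regulators of the complex, 3 (20%) were up-regulated and 3 (20%) down-regulated, against 28.6% and 17.6% of all genes. The tankyrases TNKS (2.61 ± 0.20) and TNKS2 (3.58 ± 0.23), which mark AXIN for degradation, and the deubiquitinase USP34 (4.43 ± 0.30), which acts on AXIN, were up-regulated. Down-regulated were DVL1 (-1.71 ± 0.13), a Dishevelled protein that relays the receptor signal, and the Dishevelled antagonists DACT3 (-3.36 ± 0.28) and NKD2 (-1.97 ± 0.17). With length and GC offsets 2 of the list were up-regulated and 1 down-regulated, against 18% and 6.58% of all genes on that scale. TNKS, TNKS2 and USP34 then lay at 0.31, 1.57 and 1.86.

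Of 19 tested receptors and genes of receptor turnover, 10 (52.6%) were up-regulated and 1 (5.26%) down-regulated, against 28.6% and 17.6% of all genes. LGR4, a receptor for R-spondins, rose from 0.771 to 32.8 CPM (5.42 ± 0.30). The Frizzled receptors FZD3 (3.85 ± 0.32) and FZD8 (3.44 ± 0.22) were also up-regulated, and the co-receptor ROR2 was down-regulated (-1.62 ± 0.22). With length and GC offsets 4 of the list were up-regulated and 0 down-regulated, where 18% and 6.58% of all genes were, and FZD8, whose transcript has 64.6% GC, went to 4.66.

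Of 18 tested ligands and genes of ligand secretion, 3 (16.7%) were up-regulated and 7 (38.9%) down-regulated, against 28.6% and 17.6% of all genes. RSPO2 and RSPO3, which encode R-spondins, had 0 counts in every parental library. Their mean CPM over the mutant libraries was at least 5.94-fold and 11.6-fold higher than the level of 3 counts in the shallowest parental library. WNT5A, a mainly noncanonical ligand, rose from 0.597 to 9.73 CPM (4.01 ± 0.32). WNT3A fell from 14.0 to 0.272 CPM (-5.66 ± 0.26), and WNT6 (-3.72 ± 0.33) and WNT10A (-3.69 ± 0.25) were down-regulated too. With offsets 4 of the list were up-regulated and 4 down-regulated, against 18% and 6.58% of all genes on that scale.

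Of 3 tested secreted inhibitors, DKK3 (-1.63 ± 0.38) and NOTUM (-2.30 ± 0.21), an enzyme that inactivates Wnt ligands, were down-regulated and 0 up-regulated, too few for a share to be read against all genes, and with offsets 0 of the 3 were called. Of 18 nuclear partners of β-catenin, 6 (33.3%) were up-regulated and 2 (11.1%) down-regulated, beside the same 28.6% and 17.6%. The acetyltransferase EP300 (3.07 ± 0.31) and the corepressor TLE4 (2.85 ± 0.28) were up-regulated, as was PYGO1, which had 1 count in the parental libraries together and 30 to 76 counts in the mutant ones. The corepressors TLE2 (-1.78 ± 0.18) and TLE5 (-1.92 ± 0.13) were down-regulated. With offsets 4 of that list were up-regulated and 0 down-regulated, against 18% and 6.58% of all genes on that scale.

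**Figure D5:**
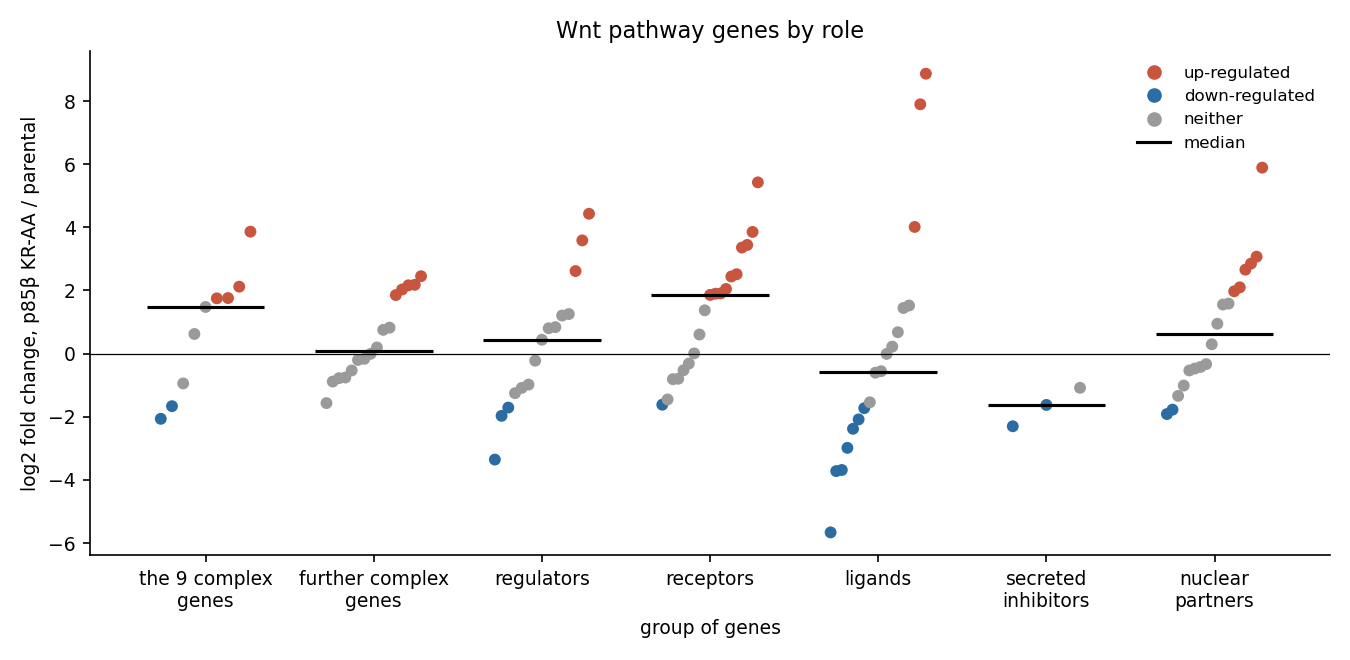
Log2 fold change (p85β KR-AA over parental, vertical axis) of the 9 complex genes and of 89 tested Wnt pathway genes grouped by role, each point a gene and each bar the median of its group. Up-regulated (red) and down-regulated (blue) mean at least 3-fold with an adjusted p-value under 0.01. Medians run from 1.86 for receptors to -1.63 for the 3 secreted inhibitors, and the highest points of the ligands (RSPO3, RSPO2) and of the nuclear partners (PYGO1) rest on 1 parental count or none.

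By distance between profiles of centred log2 CPM over the 6 libraries, the tested genes most like APC were PTPN13 (0.149), PDS5A (0.202) and RLIM (0.260). Their log2 fold changes were 3.79, 3.52 and 3.56, beside 3.86 for APC. The nearest of the other complex genes was AMER1, at rank 3071 and a distance of 2.15. The genes most like CTNNB1 were ATP6V1E1 (0.0762), TMEM59 (0.0765) and GCH1 (0.0844), and its nearest complex gene was CSNK1A1, at rank 3113. ATP6V1E1, TMEM59 and GCH1 had log2 fold changes of 0.61, 0.62 and 0.69, beside 0.62 for CTNNB1. Near profiles thus had near fold changes, and shared regulation was not tested.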

How the data were processed

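Total RNA of parental DLD1 cells (3 libraries) and of the p85β KR-AA mutant (3 libraries), grouped and numbered by the labels' titles, was sequenced by the authors as paired-end reads, trimmed with SeqPrep and Sickle. The table the authors deposited holds, for each Ensembl gene, an estimated count per library without normalization, and a gene length. The submitters' processing notes name HISAT2 2.1.0, RSEM 1.3.1, DESeq2 1.24.0 and hg18, without roles. The identifiers are newer than hg18, so gene positions, transcript GC content and canonical lengths are those of GENCODE release 44 lifted to GRCh37. GC content is that of the annotated transcript closest in length to the deposited gene length. Of the deposited lengths, 48208 of 58884 equal an annotated transcript (7 of the 9 complex genes). No deposited column was left out.

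The design assumed whole counts, so the estimated counts were rounded. edgeR 4.0.16 (R 4.3.3) was run on all 6 libraries with no covariate, using TMM factors, filterByExpr (min.count 10, min.total.count 15), the quasi-likelihood F test and Benjamini-Hochberg adjustment. The SE of a log2 fold change was derived from that test, as the absolute log2 fold change divided by the square root of F. The study's thresholds were a fold change of 3 and an adjusted p-value of 0.01. Tables were joined with pandas 2.3.3, permutation tests used SciPy 1.17.1 and plots matplotlib 3.10.9. 1 count was worth 0.0273 to 0.0728 CPM, and no pair of libraries agreed within sampling noise (chi-square per degree of freedom 4.08 to 35.8). Offsets were robust splines with 5 degrees of freedom per library. The fit was tested on simulated data.

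The 9 genes and the lists were chosen with earlier results of these data known. Named were the 9 genes, up to 3 genes in each direction of each pathway list with the largest log2 fold change among those called whose groups do not overlap, the paralogs AXIN2 and FBXW11, the 3 profiles nearest to APC and CTNNB1, and PIK3R2. Single marker genes and overlapping genes were named after their values were seen. Promoter windows are RefSeq's. Alternatives were DESeq2 1.42.0, other scalings, filters, thresholds, offsets, the replicate block and each library left out.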

Additional observations from a re-analysis of the deposited data

How the results depend on the processing

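Of the complex genes' fold changes recomputed under the alternatives, 116 kept their direction and their side of the threshold, 22 kept the direction but lost the call, 3 gained it and 2 reversed. Both reversals were AXIN1, at 0.33 with length and GC offsets and 0.33 with these and the replicate block. Scaling by library totals gave 0 down-regulated complex genes, 5 down-regulated pathway genes, and 7052 up- and 973 down-regulated genes in all. Requiring 10 counts in every library gave 1 down-regulated complex gene, 8 down-regulated pathway genes and 2898 up-regulated genes in all. Under that filter APC was not tested, and APC2 lost its call at -1.47. The length offset gave 15 up-regulated pathway genes. Length and GC offsets gave 0 complex genes in either direction, 15 and 6 pathway genes, and 2856 and 1046 of all genes. Together with the replicate block they gave 0 and 0, 15 and 6, and 2799 and 1025. Testing the fold against 3 gave 1 up- and 1 down-regulated complex gene (APC and GSK3A), 9 down-regulated pathway genes, and 2974 and 1779 of all genes. With no fold limit 32 pathway genes and 5246 genes in all were lower, and at a p of 0.05 and 2-fold 23 and 4289. DESeq2, the fit with no filter and the replicate block alone each kept 4 up- and 2 down-regulated complex genes. Leaving out 1 library at a time gave 3 to 4 up-regulated and 2 down-regulated complex genes, 28 to 29 and 14 to 17 pathway genes, 4404 to 4783 and 2774 to 2992 of all genes, and ratio changes of 3.57 to 4.11 (GSK3B/GSK3A) and 5.36 to 5.86 (APC/APC2). With length and GC offsets, added after the data were seen, the ratio changes were 1.49 (GSK3B/GSK3A), 2.67 (APC/APC2), -0.74 (BTRC/FBXW11) and -1.22 (CTNNB1/APC), and they reversed to -0.24 (AXIN2/AXIN1) and -0.25 (CTNNB1/AXIN1). The cause of these shifts was not tested.

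The shared replicate numbers did not pair the libraries: the deviations of same-numbered libraries from their group means correlated at -0.14, 0.12 and -0.045, against 0.0097 on average for the other pairings. With the replicate block, 4 complex genes were up-regulated and 2 down-regulated. Depth limits APC most, whose parental level rests on 5 to 8 counts per library, where 3 counts are worth 0.185 to 0.218 CPM.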
